A study of Mus musculus with 12 samples.

Results

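Pillar cells and Deiters' cells are supporting cells of the organ of Corti, the sensory epithelium of the cochlea, and their RNA was compared here for the genes of the endothelin system. The system was taken as 7 genes of the 48440 features in the expression table, namely the ligand genes Edn1, Edn2 and Edn3, the receptor genes Ednra and Ednrb, and the converting enzyme genes Ece1 and Ece2. The list was chosen from the difference in Ednrb between the cell types, so Ednrb is described with no p, while the other 6 genes were included by family. Both cell types came from adult CBA/J mice aged 28 to 32 days per the labels (the methods give a slightly wider range), and the labels name no allele or treatment for either. After enzymatic digestion and trituration of the tissue, cells were recognized by shape and drawn singly into a suction pipette. About 1000 cells of 1 type made a library, with 3 libraries per cell type and 2 sequencing lanes per library. The lanes of a library were averaged, and values are RPKM, read numbers scaled for transcript length and for the mapped reads of the lane, given as mean ± SD over the 3 libraries.

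Endothelins are short peptides that are cut from larger precursors. Furin-like proteases release an inactive intermediate, big endothelin, and endothelin-converting enzymes, which are membrane metalloproteases, trim it to the active peptide. The peptides act on G protein-coupled receptors. The endothelin A receptor (Ednra) prefers endothelin 1 and endothelin 2 over endothelin 3, whereas the endothelin B receptor (Ednrb) binds them all about equally and also clears endothelin by internalization. Ednrb and Edn3 are best known for the neural crest, where their loss in mice and humans leaves gaps in pigment cells and enteric neurons, and for hearing loss where pigment cells are missing from the stria vascularis.

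The libraries held 18641352 to 21557581 reads, worked out from the steps between RPKM values. Supporting cell markers were present in both cell types, with 11 of 12 genes above 1 RPKM in each. Lists for the individual types did not separate them. Of the pillar cell markers tested, 4 were pillar-enriched and 3 Deiters'-enriched. In each direction, 1 of them had a mean of at most 0.1 RPKM in the other cell type. The most abundant of the list were S100b, a calcium-binding protein, at 458 ± 14.7 RPKM in pillar and 177 ± 10.3 RPKM in Deiters' libraries, Cryab, a small heat shock protein, at 344 ± 8.69 and 746 ± 19.8 RPKM, and S100a6 at 42.2 ± 1.5 and 2.70 ± 0.330 RPKM. The defining marker Ngfr, the low-affinity neurotrophin receptor, was at 0.0150 ± 0.0153 RPKM in pillar and 0.0810 ± 0.0592 RPKM in Deiters' libraries. Of the Deiters' cell markers tested, 3 were higher in each cell type, and Fgf20 was at 0 throughout. Of the 3 higher in pillar cells, 1 had a mean of at most 0.1 RPKM in Deiters' cells. Hair cell markers were present as well, with a summed level of 1312 to 1360 RPKM in pillar libraries and 292 to 296 RPKM in Deiters' libraries. The cell type names below are therefore those of the labels. Each library pools many cells, so fewer cells with a transcript and less transcript per cell cannot be told apart.

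All 7 genes passed the filter on low values, a mean above 0.1 RPKM in at least 1 cell type, and Edn2 passed it through Deiters' cells alone. The transcripts were compared on log2(RPKM + 0.1) with limma over all 17188 genes that passed. A gene was called enriched in a cell type where its level was at least 2-fold higher on that scale and the Benjamini-Hochberg adjusted p did not exceed 0.01. Of the 6 genes other than Ednrb, 1 (Ednra) was called pillar-enriched and 2 (Edn2 and Ece1) Deiters'-enriched. Since Edn2 entered through the cell type in which it is high, its call is no support for a difference. Among all genes tested, 14.7% were called pillar-enriched and 14.0% Deiters'-enriched. Libraries of the cell types did not overlap in 6 of the 7 genes, Ednrb and Edn2 included, and in 76.5% of all genes tested. A negative log2 difference means a higher level in Deiters' cells throughout.

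**Figure D1:**
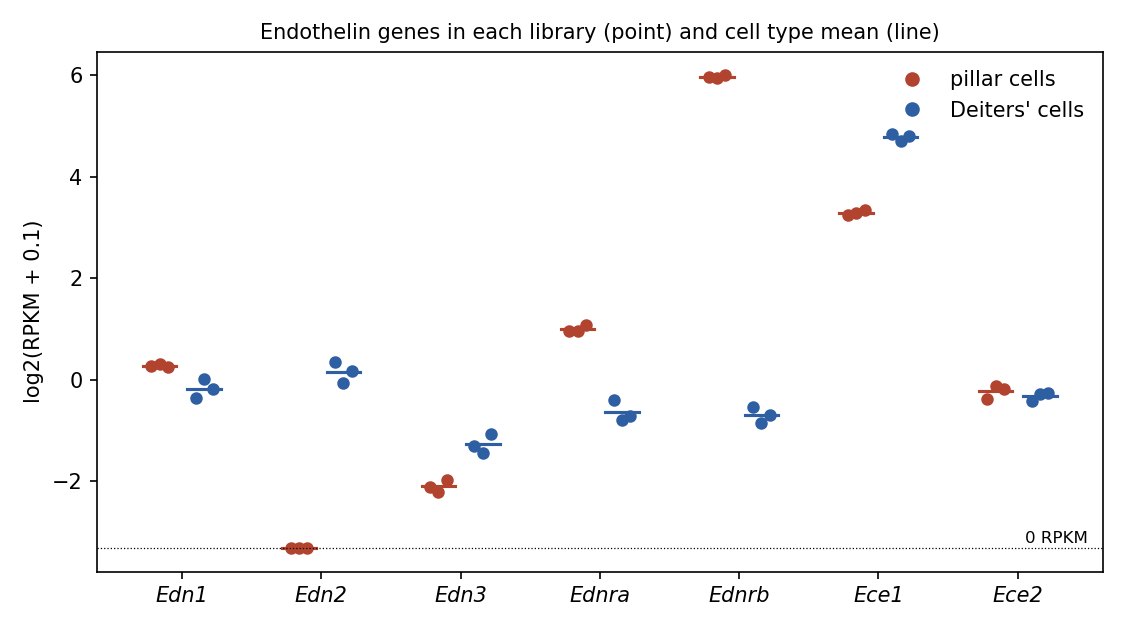
Level of each endothelin gene in each library, as log2(RPKM + 0.1), with 3 points per cell type, a line at their mean, and a dotted line where 0 RPKM falls. Ednrb stands apart in pillar cells at 61.7 to 63.9 RPKM, Edn2 is at 0 RPKM in all 3 pillar libraries, and only Ece2 overlaps between the cell types.

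The sequence before the transcription start is shown for the 4 genes that differed most in level, the receptor pair that was higher in pillar cells and the ligand and enzyme that were higher in Deiters' cells. The stretches are the 250 bases upstream of the start in RefSeq on GRCm38.p6, read 5′ to 3′ on the strand of the gene, with CG dinucleotides in capitals. They lie at chr14:103843702-103843951 (minus strand) for Ednrb, chr8:77724453-77724702 (minus strand) for Ednra, chr4:120160956-120161205 (plus strand) for Edn2 and chr4:137861987-137862236 (plus strand) for the first of 4 listed starts of Ece1. The annotations differ for Ednrb. Its stretch falls inside the span of the gene in the GENCODE M21 annotation, 103814625 to 103844402, and so lies upstream of the RefSeq start alone.
Ednrb: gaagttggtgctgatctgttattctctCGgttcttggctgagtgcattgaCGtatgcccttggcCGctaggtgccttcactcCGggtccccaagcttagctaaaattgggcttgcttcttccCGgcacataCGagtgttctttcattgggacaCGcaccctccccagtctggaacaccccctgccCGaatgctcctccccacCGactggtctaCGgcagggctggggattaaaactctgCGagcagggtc
Ednra: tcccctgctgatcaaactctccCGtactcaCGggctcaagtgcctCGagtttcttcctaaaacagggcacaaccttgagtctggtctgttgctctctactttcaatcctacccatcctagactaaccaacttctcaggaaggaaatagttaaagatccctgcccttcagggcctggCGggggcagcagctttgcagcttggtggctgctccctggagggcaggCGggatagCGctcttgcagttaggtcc
Edn2: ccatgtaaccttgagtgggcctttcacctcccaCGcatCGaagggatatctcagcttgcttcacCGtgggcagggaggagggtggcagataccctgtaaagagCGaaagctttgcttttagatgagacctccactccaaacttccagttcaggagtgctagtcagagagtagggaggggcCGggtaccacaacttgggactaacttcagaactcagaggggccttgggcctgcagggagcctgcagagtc
Ece1: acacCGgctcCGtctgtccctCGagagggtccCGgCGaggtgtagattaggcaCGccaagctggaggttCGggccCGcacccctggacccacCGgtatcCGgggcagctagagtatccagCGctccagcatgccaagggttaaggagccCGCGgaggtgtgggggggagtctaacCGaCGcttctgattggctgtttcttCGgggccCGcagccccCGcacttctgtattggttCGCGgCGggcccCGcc
The Ednrb stretch held 11 CG dinucleotides, the Ednra stretch 6, the Edn2 stretch 5 and the Ece1 stretch 22, against a median of 6 over 32851 promoters of the same length. Fewer than in Ece1 were found in 85.2% of those promoters, and fewer than in Ednrb in 64.4%. Of the 4 stretches shown, that of Ece1 was thus the richest in CG, while that of Ednrb lay nearer the middle of all promoters. The number for Ece1 depends on the start, since its other listed starts had 23, 14 and 5 CG dinucleotides. The stretch of Ece2, which is not shown, held 19, although its transcript averaged only 0.754 RPKM in pillar and 0.701 RPKM in Deiters' cells. Whether CG number goes with transcript level was not tested. All 7 genes had a match in the promoter table, and 5 motifs were searched in them on both strands. These were TATAAA (a core promoter element, in 12.4% of all promoters), AGATAA (a site of Gata2 and its relatives, 9.99%), TGANTCA (AP-1, 6.75%), ACAAAG (SOX factors, 16.5%) and GGGCGG (the GC box, 32.7%). Before the RefSeq starts of Ednrb, Ednra, Edn1, Edn2 and Edn3 no match to any of them was found. The GC box was found 50 bases before the start of Ece2, 48 and 14 bases before the second start of Ece1 and 138 bases before the fourth, each on the reverse strand and without overlap with another motif.

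Among the ligands, Edn2 differed most between the cell types. Edn2, the gene of endothelin 2, lies on chromosome 4 at 120161206 to 120167360 (GRCm38, plus strand). It was listed at 0 RPKM in pillar libraries 1, 2 and 3, and at 1.17, 0.852 and 1.03 RPKM in Deiters' libraries 1, 2 and 3. No read was counted in any lane of pillar cells, whereas the Deiters' libraries held 37, 24 and 28 reads, seen in both lanes of each. A count of 0 allows up to 3 reads, or 0.102 to 0.107 RPKM per pillar library. The Deiters' mean was 9.66-fold above the mean of these limits, and the lowest Deiters' library was 7.93-fold above the highest limit. These values allow for counting error in the pillar libraries only. The fitted difference was -3.47 ± 0.16 (SE) on the log2 scale, a value that depends on the added 0.1 RPKM and is given with no p, since Edn2 passed the filter only through Deiters' cells. Zeros of other genes are given for comparison, and the cause of the Edn2 zeros was not tested. All 16 housekeeping genes looked up were above 0 in every lane. The lowest of them, Tbp, was at 2.20 RPKM or more, above the level of Edn2, so they say little about zeros at that level. Of the 11182 genes above 0.8 RPKM in every Deiters' library, a limit set just under the lowest value of Edn2, 49 were at 0 in every pillar lane. In the other direction, 46 of the 11656 genes above 0.8 RPKM in every pillar library were at 0 in every Deiters' lane. Most of these 11182 genes were more abundant than Edn2, and the share of zeros at its own level was not tested.

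Edn1, on chromosome 13 at 42301476 to 42307990 (plus strand), encodes endothelin 1, the main vasoconstrictor of the family. Its level was 1.10, 1.14 and 1.09 RPKM in pillar libraries 1, 2 and 3. In Deiters' libraries 1, 2 and 3 it was 0.673, 0.909 and 0.778 RPKM. The libraries did not overlap, but the means, 1.11 ± 0.0268 and 0.787 ± 0.118 RPKM, lay only 1.41-fold apart. The difference was 0.45 ± 0.13 (SE) on the log2 scale with an adjusted p of 0.016, which passed neither threshold, and its 95% interval ran from 1.11-fold to 1.69-fold higher in pillar cells. Edn1 shares 35 exon bases with a gene on the other strand, Gm47118, not analysed here, and reads of the pair cannot be told apart without strand.

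Edn3, on chromosome 2 at 174760619 to 174784042 (plus strand), encodes endothelin 3, the ligand that pairs with Ednrb in the neural crest. It was the lowest ligand in Deiters' cells and close to the expression limit in pillar cells, at 0.132, 0.115 and 0.152 RPKM in pillar libraries 1, 2 and 3. The Deiters' libraries, in the same order, stood at 0.304, 0.265 and 0.378 RPKM. The libraries did not overlap. They rested on 9 to 12 reads per library in pillar cells and 21 to 29 in Deiters' cells, and the means were 2.37-fold apart. On the scale with 0.1 RPKM added the difference was -0.83 ± 0.17 (SE), under 2-fold, with an adjusted p of 0.0038, and Edn3 was not called. With 0.01 RPKM added the difference was -1.18 and passed both thresholds, so the call rests on that choice.

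The ligands were low in both cell types and differed in make-up. Their summed level was 1.24 ± 0.0111 RPKM in pillar against 2.12 ± 0.0832 RPKM in Deiters' cells. Edn1 made up 89.3 ± 1.57% of it in pillar cells against 37.3 ± 6.91% in Deiters' cells, where Edn2 made up 47.9 ± 6.29%. Edn3 held 10.7 ± 1.56% and 14.8 ± 2.21%. All ligand values were below the median expressed gene, 3.83 RPKM in pillar against 3.40 RPKM in Deiters' cells.

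**Figure D2:**
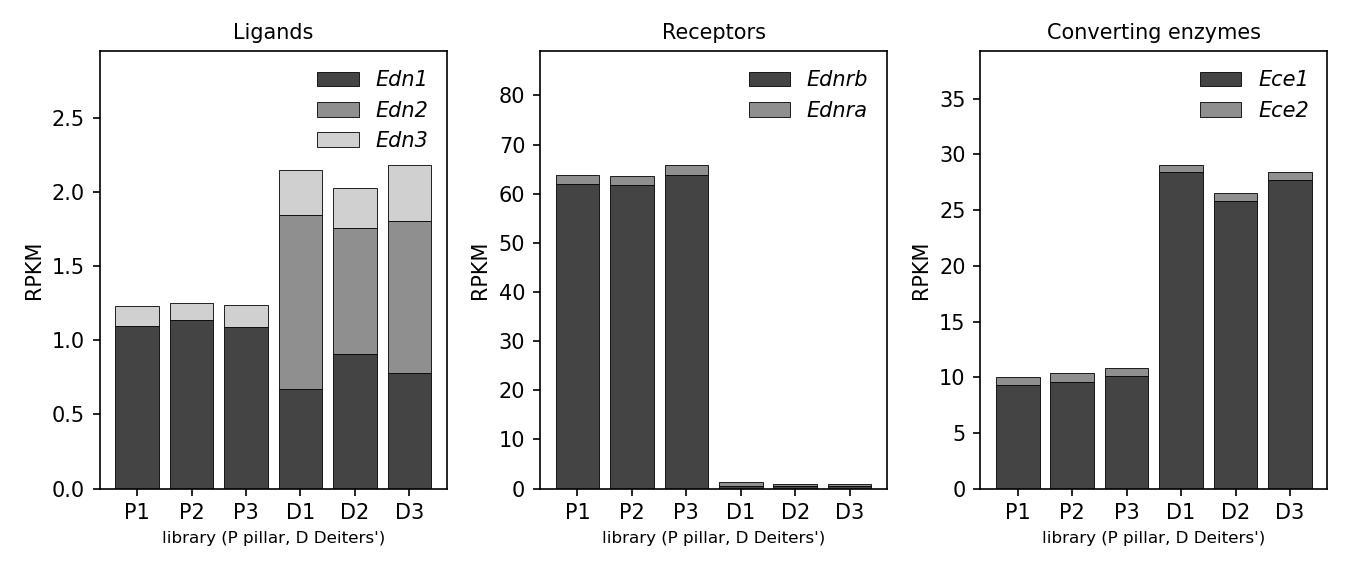
RPKM of the ligands, receptors and converting enzymes stacked per library, for pillar libraries P1 to P3 and Deiters' libraries D1 to D3, each panel with its own axis from 0. The receptor bars are almost all Ednrb in pillar cells (97.1% on average) and fall to 1.07 RPKM in Deiters' cells, while the enzyme bars rise from 10.4 to 28.0 RPKM and the ligand bars from 1.24 to 2.12 RPKM.

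Both receptor genes were higher in pillar cells. Ednrb, on chromosome 14 at 103814625 to 103844402 (minus strand), read 62.1, 61.7 and 63.9 RPKM in pillar libraries 1, 2 and 3. In Deiters' libraries 1, 2 and 3 it read 0.585, 0.450 and 0.518 RPKM. The ratio of means was 121, and the libraries lay far apart, with 4758 to 5059 reads in each pillar library and 35 to 51 in each Deiters' library. Pillar libraries varied by 1.84% (coefficient of variation) in Ednrb, against 1.43% from counting alone. In Deiters' libraries, with few reads, counting alone gives 15.5%. In pillar cells Ednrb was above 93.6% of the 15602 genes with a mean over 0.1 RPKM, and in Deiters' cells above 20.8% of 16005. These values chose the list and stand as a description.

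Ednra, on chromosome 8 at 77663031 to 77724464 (minus strand), encodes the receptor that drives contraction in vascular smooth muscle. It was at 1.84, 1.85 and 2.02 RPKM in pillar libraries 1, 2 and 3. Deiters' cells gave, by library, 0.661, 0.474 and 0.510 RPKM. Every pillar library was above every Deiters' library, and the means were 3.47-fold apart. The difference was 1.64 ± 0.13 (SE) on the log2 scale (adjusted p = 5.7e-05), and 15.2% of all genes tested had a larger one in either direction. With 1 RPKM added it shrank to 0.91 and was no longer called. A gene on the other strand, 4933431K23Rik, shares 91 exon bases with Ednra and was listed at no more than 0.00926 RPKM in any library.

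The ratio of the receptors to each other and to the ligands restates the Ednrb values that chose the list and is a description. Ednrb exceeded Ednra by 33.8, 33.3 and 31.6 times in pillar libraries 1, 2 and 3. In Deiters' libraries 1, 2 and 3 the ratio was 0.885, 0.950 and 1.02, so that neither receptor stood above the other there. Set against the ligands, Ednrb was 50.4 ± 1.14 times their summed level in pillar cells but 0.244 ± 0.0256 times in Deiters' cells.

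Of the converting enzymes, Ece1 was the abundant form in both cell types and was higher in Deiters' cells. Ece1, on chromosome 4 at 137862237 to 137965229 (plus strand), encodes the main protease that activates big endothelin 1. It was at 9.34, 9.58 and 10.1 RPKM in pillar libraries 1, 2 and 3. In Deiters' libraries 1, 2 and 3 it was at 28.4, 25.9 and 27.7 RPKM. The groups did not overlap, the means were 2.83-fold apart, and the difference was -1.49 ± 0.05 (SE) on the log2 scale (adjusted p = 1.2e-06). It was the opposite direction to the receptors and the same as Edn2.

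Ece2, on chromosome 16 at 20629828 to 20646485 (plus strand), encodes a related protease that works at acidic pH inside the cell. It was at 0.666, 0.815 and 0.781 RPKM in pillar libraries 1, 2 and 3. The 3 Deiters' libraries had 0.643, 0.721 and 0.737 RPKM. The libraries overlapped, and the difference of 0.09 ± 0.12 (SE) on the log2 scale had an adjusted p of 0.52 and a 95% interval from 0.867-fold to 1.31-fold. Ece2 shares 2937 exon bases with Gm49333, a protein-coding gene on the same strand that is not analysed here, so its reads are uncertain. Ece1 was 12.9 ± 1.14 times Ece2 in pillar cells but 39.2 ± 4.42 times in Deiters' cells.

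**Figure D3:**
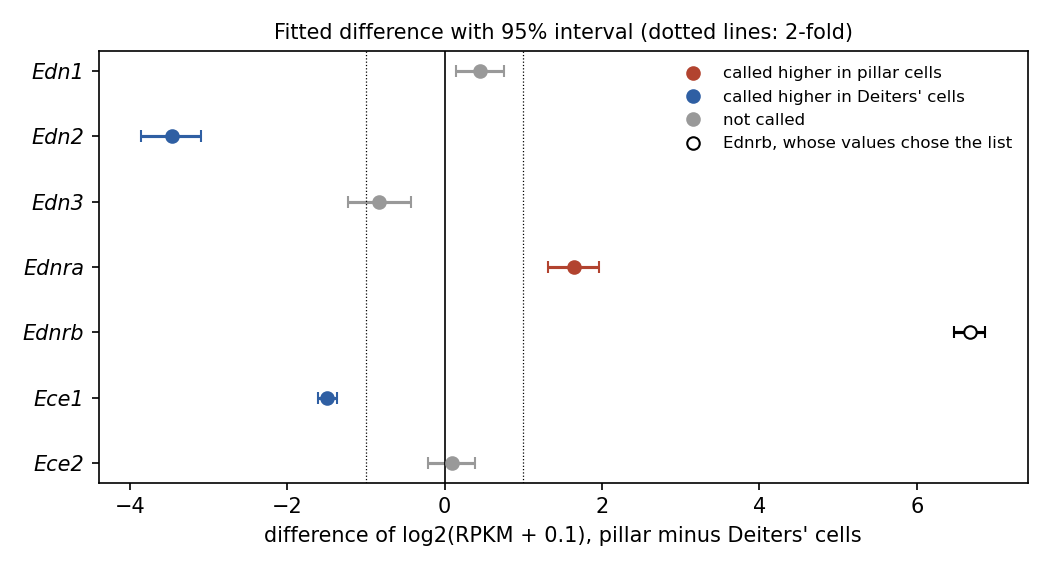
Fitted difference between the cell types on the log2(RPKM + 0.1) scale, pillar minus Deiters' cells, with its 95% interval over 3 libraries per cell type. Ednra lies past the 2-fold line towards pillar cells (1.64), Ece1 (-1.49) and Edn2 (-3.47) past it towards Deiters' cells, and Ednrb (6.67) is drawn open because its values chose the list and no p is given for it. Edn2 is coloured as called, but it passed the filter through Deiters' cells alone. Its pillar values were all 0 RPKM, so its place depends on the added 0.1 RPKM. The intervals of Edn2 and Ednrb are a description only.

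The order of the genes by level per length differed between the cell types. In pillar cells it ran Ednrb, Ece1, Ednra, Edn1, Ece2, Edn3 and Edn2, and no neighbours overlapped between libraries. In Deiters' cells Ece1 came first and Edn3 last. Between them Edn2, Edn1, Ece2, Ednra and Ednrb followed at 1.02, 0.787, 0.701, 0.548 and 0.518 RPKM on average, and each of these overlapped its neighbour, so they were not put in order. With 3 libraries per cell type an exact permutation test cannot give a two-sided p under 0.1, and none was run. The labels and the methods call the 3 libraries of a cell type biological replicates. The methods give an approximate number of mice for 1000 cells of each type, but not which mice went into which library. The p-values therefore measure the spread between these libraries.

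Genes around the endothelin system were taken from 7 lists with 66 genes, of which 5 lists cover the making, removal and relay of the signal and the others hold related orphan receptors and neural crest genes. Of the 55 tested, 21 were called pillar-enriched and 4 Deiters'-enriched, and the median difference was 0.65 on the log2 scale, against 0.00 over all genes tested, of which 28.7% were called. The related receptors and neural crest genes supplied 6 of the 21 and none of the 4. Of the 25 called genes, 8 had a mean of at most 0.1 RPKM in the other cell type and so passed the filter only through the type in which they are high. Among genes for maturation and clearance, 4 of 8 tested were pillar-enriched and 1 Deiters'-enriched. Where levels are given as a pair, pillar cells come first. Pcsk6, a furin-like protease, was 5.51 ± 0.236 and 29.8 ± 1.20 RPKM (log2 difference -2.42 ± 0.05, adjusted p = 1.9e-07). Pcsk5, another furin-like protease, went the other way, at 2.15 ± 0.0286 and 0.760 ± 0.150 RPKM (1.40 ± 0.14, adjusted p = 0.00016). The other 3 pillar-enriched genes were relatives of the converting enzymes, and Mmel1 and Ecel1 among them passed the filter through pillar cells alone. Mmel1, a close relative of neprilysin, was 1.24 ± 0.0886 RPKM in pillar cells and at 0 in every Deiters' library. Its pillar mean was 28.4-fold above the mean floor of 3 reads per Deiters' library. Ecel1, named for its likeness to Ece1, was 1.23 ± 0.152 and 0.0684 ± 0.0256 RPKM. Kel, which can cleave big endothelin 3 in humans, was 1.94 ± 0.157 and 0.408 ± 0.120 RPKM. Furin itself was 3.11 ± 0.207 RPKM in pillar against 4.80 ± 0.119 RPKM in Deiters' cells, under 2-fold.

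Downstream of the receptors the lists held calls in both directions. Of 10 receptor G protein genes, 2 were pillar-enriched and 1 Deiters'-enriched. Gnaq, the subunit that couples endothelin receptors to phospholipase C, was 5.02 ± 0.192 RPKM in pillar against 2.14 ± 0.107 RPKM in Deiters' cells. Gnai1, an inhibitory subunit, was 3.85 ± 0.384 and 0.732 ± 0.226 RPKM. Gna12, another subunit, went the other way, at 16.9 ± 0.741 RPKM in pillar against 36.6 ± 0.692 RPKM in Deiters' cells. In the list for phospholipase C and calcium release, 2 of 10 genes were pillar-enriched and 1 Deiters'-enriched. Plcb4, a phospholipase C, was 8.63 ± 0.475 and 3.32 ± 0.293 RPKM, and Plcb1, another, which passed the filter through pillar cells alone, was 0.573 ± 0.0615 and 0.0934 ± 0.0140 RPKM. Prkcb, a protein kinase C, was 3.56 ± 0.362 RPKM in pillar against 18.1 ± 1.16 RPKM in Deiters' cells.

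Of 10 desensitization genes tested, 3 were pillar-enriched and 1 Deiters'-enriched, all of them regulators of G protein signalling, which shorten the G protein signal. Rgs2 was 19.2 ± 0.347 RPKM in pillar against 6.82 ± 0.645 RPKM in Deiters' cells (adjusted p = 4.8e-06). Calls of the others rested on single libraries. Rgs3, at 2.40 ± 0.273 and 1.13 ± 0.0272 RPKM, fell under 2-fold without pillar library 3 (0.94 on the log2 scale), as did Rgs4 (-0.96), at 3.10 ± 0.375 and 6.55 ± 0.201 RPKM. Rgs5, at 0.465 ± 0.0618 and 0.146 ± 0.0623 RPKM, no longer passed on p without pillar library 1 (1.14). None of these 3 was called from lane 2 alone (0.99, -0.98 and 1.10). In the list for nitric oxide and cGMP, the route by which Ednrb relaxes vessels from the endothelium, 4 of 7 genes were higher in pillar cells, but no gene of it exceeded 1 RPKM in either cell type, and the 4 passed the filter through pillar cells alone. Gucy1b3, a subunit of the nitric oxide receptor, was 0.409 ± 0.0198 and 0.0428 ± 0.0147 RPKM. Prkg2, a cGMP-dependent kinase, was 0.431 ± 0.118 and 0.0158 ± 0.0151 RPKM, and Nos1, a nitric oxide synthase, 0.293 ± 0.0680 and 0.0693 ± 0.00616 RPKM. Gucy1a2, an alpha subunit that partners Gucy1b3, was 0.232 ± 0.0704 and 0.0304 ± 0.0308 RPKM and lost its call without pillar library 2 (1.19), pillar library 3 (1.37) or Deiters' library 2 (1.36), and likewise from lane 1 alone (1.08) and with 0.01 RPKM added (2.95), by p. Gucy1a3, the other alpha subunit listed, ran the opposite way, at 0.0245 ± 0.00345 and 0.141 ± 0.0293 RPKM (-0.95 ± 0.17, adjusted p = 0.0022), just under 2-fold on this scale. It passed the filter through Deiters' cells alone and was called without Deiters' library 1 (-1.03), from lane 2 alone (-1.13) and with 0.01 RPKM added (-2.12).

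**Figure D4:**
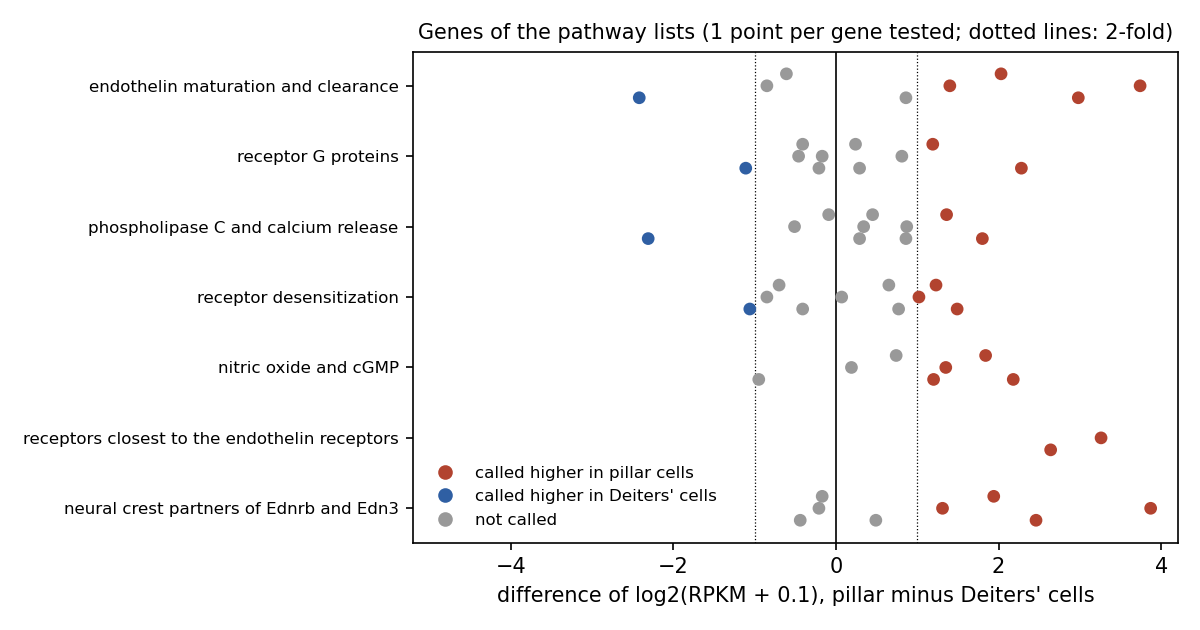
Difference between the cell types for each of the 55 genes tested in the 7 pathway lists, on the log2(RPKM + 0.1) scale, pillar minus Deiters' cells, 1 point per gene. Called genes are coloured by direction, 21 towards pillar cells and 4 towards Deiters' cells, and no list has all its genes on the Deiters' side.

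The receptors closest in sequence to the endothelin receptors were likewise higher in pillar cells. Gpr37, an orphan receptor known from glia, was 5.94 ± 0.290 RPKM in pillar against 0.529 ± 0.0293 RPKM in Deiters' cells (log2 difference 3.26 ± 0.08, adjusted p = 4.2e-07). Gpr37l1, its paralogue, was 3.03 ± 0.350 and 0.399 ± 0.0273 RPKM (2.64 ± 0.12, adjusted p = 3.7e-06). Of 8 tested neural crest partners of Ednrb and Edn3, 4 were higher in pillar cells and none in Deiters' cells. Kitl, the ligand of the Kit receptor, was 7.92 ± 0.649 and 1.36 ± 0.134 RPKM. Gdnf, a neurotrophic factor of the enteric nervous system, was 1.36 ± 0.165 RPKM in pillar cells and listed at 0 in all Deiters' libraries, so that it passed the filter through pillar cells alone, and Gfra1, its co-receptor, was 2.95 ± 0.184 and 1.13 ± 0.0780 RPKM. Snai2, a transcription factor of migrating crest cells, was 1.11 ± 0.137 and 0.223 ± 0.101 RPKM. Sox10, which directly regulates Ednrb in neural crest, was high in both cell types, at 58.9 ± 3.33 and 66.1 ± 2.35 RPKM, and its difference of -0.17 on the log2 scale was not called.

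The 6 genes whose pattern was most like that of Ednrb were taken from 11549 genes tested with a mean above 1 RPKM in pillar cells. Likeness was the root mean square difference over the 6 libraries between log2(RPKM + 0.1) values, each gene centred on its own mean. Gpr152, an orphan receptor, was nearest (0.14), followed by Prdm12, a transcription factor of nociceptors (0.28), and the immunoglobulin gene Iglc3 (0.30). Ighv5-17, another immunoglobulin gene, and Klhdc7b followed at 0.63 and Luzp2 at 0.64. Their means in pillar cells were lower than that of Ednrb, from 4.22 RPKM in Ighv5-17 to 18.3 RPKM in Prdm12, and none exceeded 0.213 RPKM in Deiters' cells. Since the pattern is mostly a single step between the cell types, the likeness describes the size of that step. That size depends on the added 0.1 RPKM. The ratio of means was 2068 for Gpr152 against 121 for Ednrb, and Iglc3 and Ighv5-17 were at 0 in all Deiters' libraries. With 0.01 RPKM added, the log2 differences of Gpr152 and Iglc3 were 9.47 and 9.41, against 6.90 for Ednrb.

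Markers of other cells known to express Ednrb were measured beside it. Melanocyte and intermediate cell markers summed to 16.7 to 18.6 RPKM in pillar libraries and 11.1 to 16.7 RPKM in Deiters' libraries. The most abundant were Dct at 11.7 ± 0.661 and 9.17 ± 2.19 RPKM, Slc45a2 at 1.88 ± 0.0684 and 1.21 ± 0.157 RPKM and Mlana at 1.61 ± 0.497 and 0.928 ± 0.248 RPKM, none of them called. Of 8 tested, 1 was pillar-enriched, Oca2 at 1.48 ± 0.0703 and 0.148 ± 0.0446 RPKM, and 2 were Deiters'-enriched. These were Pmel at 0.0239 ± 0.0243 and 0.611 ± 0.188 RPKM and Tyr at 0.0384 ± 0.0221 and 0.237 ± 0.0628 RPKM. Both passed the filter through Deiters' cells alone. The pigment gene Tyrp1 was at 0 in the pillar libraries and at 0.0296 ± 0.00931 RPKM in the others. Schwann cell and satellite glia markers summed to 32.4 to 34.9 and 31.1 to 31.5 RPKM, with 3 of 10 pillar-enriched and 1 Deiters'-enriched. Of these 3, 2 passed the filter through pillar cells alone. Endothelial markers summed to 12.4 to 13.4 and 5.45 to 5.83 RPKM, with 3 of 7 tested pillar-enriched and 1 Deiters'-enriched. The most abundant were the 3 pillar-enriched ones, Emcn at 9.56 ± 0.374 and 4.18 ± 0.0864 RPKM, Pecam1 at 1.42 ± 0.121 and 0.0237 ± 0.0211 RPKM and Cldn5 at 1.42 ± 0.0589 and 0.488 ± 0.00908 RPKM. The Deiters'-enriched one was Tek at 0.0366 ± 0.0176 and 0.416 ± 0.108 RPKM. Pecam1 passed the filter through pillar cells alone and Tek through Deiters' cells alone. The receptor gene Tie1 was at 0 in the pillar libraries and at 0.00363 ± 0.00628 RPKM in the others. Flt1 (0.146 and 0.265 RPKM), Vwf (0.0765 and 0.196 RPKM) and Kdr (0.00374 and 0.0546 RPKM) were higher in Deiters' libraries without overlap. Flt1 and Vwf were not called and Kdr was not tested. Cdh5 and Esam had higher means in pillar cells but overlapped. Emcn made up most of the summed level in both cell types, so the sum does not speak for the list. Pericyte and smooth muscle markers summed to 6.44 to 6.94 and 2.53 to 3.26 RPKM, with 4 of 8 pillar-enriched and 1 Deiters'-enriched. The Deiters'-enriched one passed the filter through Deiters' cells alone. Hair cell markers moved with Ednrb, with all 9 tested higher in pillar cells and Atoh1 at 0 in every library, as did those of macrophages and neutrophils, which summed to 359 to 380 and 148 to 171 RPKM with 6 of 8 pillar-enriched. Of these 6, 1 passed the filter through pillar cells alone. Fibrocyte and mesenchyme markers summed to about the same in both, 1118 to 1129 and 1120 to 1162 RPKM, although 5 of 8 were pillar-enriched and 1 Deiters'-enriched. Neuronal markers moved with Edn2 and Ece1, summing to 23.4 to 24.4 RPKM in pillar libraries and 51.3 to 53.4 RPKM in Deiters' libraries, with 3 of 6 tested Deiters'-enriched. Of these 3, 1 passed the filter through Deiters' cells alone. The part of these cells in the endothelin results was not tested.

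**Figure D5:**
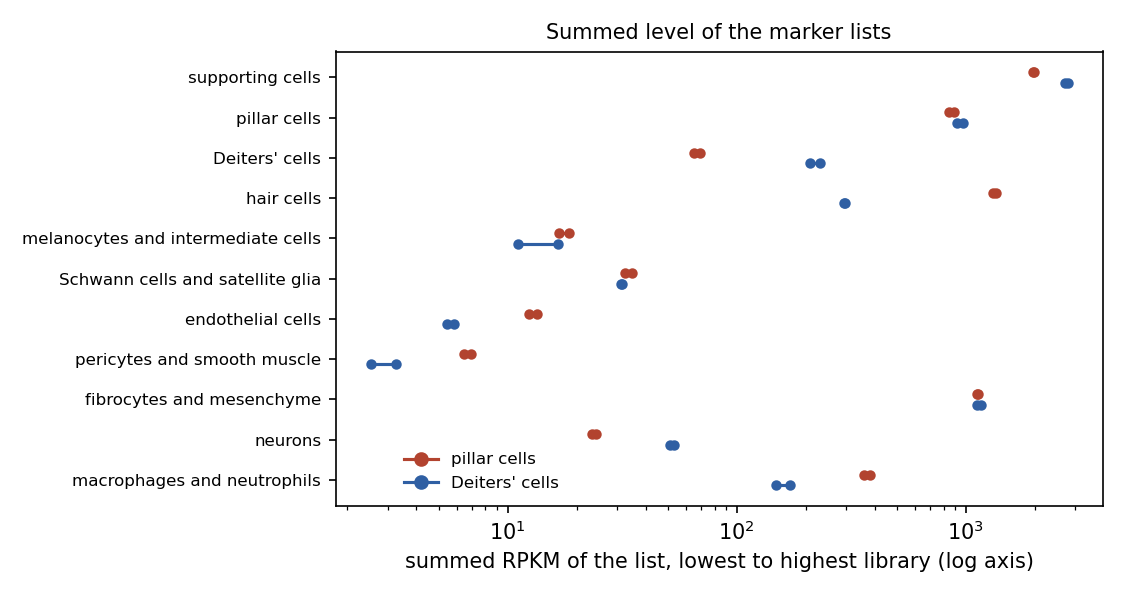
Summed RPKM of each marker list, from the lowest to the highest of the 3 libraries per cell type on a log axis. Hair cell markers are higher in pillar libraries (1312 to 1360 against 292 to 296 RPKM), and those of neurons in Deiters' libraries (51.3 to 53.4 against 23.4 to 24.4 RPKM).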

How the data were processed

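RNA of picked pillar and Deiters' cells was amplified, made into Nextera libraries and sequenced in pairs on an Illumina instrument. Per the study's methods CLC Genomics Workbench served the authors for mapping to GRCm38 (mm10), and RPKM values per lane were deposited. The annotation release and the strandedness of counting are not given in the sources used here. The labels and the methods name different cDNA kits of 1 maker.

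From these values the lanes of a library were averaged and every gene whose mean exceeded 0.1 RPKM in pillar or Deiters' cells was tested on log2(RPKM + 0.1) with limma 3.58.1 in R 4.3.3 (lmFit, eBayes with trend), Benjamini-Hochberg adjusted over 17188 genes. RPKM values are not counts, so no count model was used. Reads were recovered from RPKM steps with GENCODE M21 exon lengths, with whole numbers (tolerance 0.01) across lanes for 71.8% of 20010 features and in all 7 endothelin genes, for which a length other than that of M21 was needed in Ednrb, Edn1 and Ece2. On simulated data 191 of 200 changed genes passed on adjusted p and direction, with the 2-fold threshold left out. With that threshold included, 0 unchanged genes were called. The simulation gave every gene the same length and the same extra spread, and changed only 200 of 16615 genes, which differs from the data. The changed genes were drawn above a minimum mean level that Edn3 does not reach, so recovery at that level was not tested. The genes and lists were chosen with earlier results of these data known. Named genes were the 7 members, the called genes of each pathway list (the 4 with the smallest p where more were called), up to 3 markers per list and the 6 genes most like Ednrb. Pcsk5, Furin, Sox10, Gucy1a3, Oca2, Pmel, Tyr, Tek, Flt1, Vwf, Kdr, Cdh5, Esam, Ngfr, Fgf20 and the markers at 0 were named after their values were seen. Sequences are from RefSeq (GRCm38.p6). Alternatives changed the pseudocount, filter, scaling, lane, variance trend and replicate block, or left out a library.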

Additional observations from a re-analysis of the deposited data

How the results depend on the processing

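Under the alternatives, no endothelin gene changed direction. The pseudocount mattered most. Edn2, at 0 in pillar cells, moved most. Its difference was -3.47 with 0.1 RPKM added, -1.01 with 1 RPKM and -6.67 with 0.01 RPKM, so its size is largely set by that choice. With 1 RPKM added, Ednrb was at 5.39 and Ednra at 0.91 on the log2 scale (Ednra no longer called). At that setting 1001 genes were called pillar-enriched and 778 Deiters'-enriched, and 10 pathway genes were called pillar-enriched. With 0.01 RPKM added, Ednrb was at 6.90 and Edn3 at -1.18, now called. A filter above 1 RPKM in place of 0.1 left 1572 genes called pillar-enriched and 1224 Deiters'-enriched, against 2534 and 2404, since fewer genes were tested, and left Edn3 and Ece2 untested. Leaving out each library in turn gave 6.59 to 6.75 for Ednrb, 1.56 to 1.76 for Ednra, -3.58 to -3.37 for Edn2 and -1.53 to -1.46 for Ece1, and changed no call of an endothelin gene.

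Libraries with the same number did not deviate together in every pair (correlations of -0.286, 0.38 and 0.318). Those with different numbers ran from -0.407 to 0.347. Deviations of 3 libraries from their own mean are not independent, so these values cannot decide whether libraries share mice. The methods describe taking pillar and Deiters' cells from each animal, so the cell types may share mice. Which libraries share mice is not given, and the main fit treated all libraries as independent. With the replicate block, 2450 genes were called pillar-enriched and 2253 Deiters'-enriched, and no call of an endothelin gene changed, while Gucy1a2 lost its call. Not every library correlated best with its own number. The low read numbers of Edn3 (9 to 12 in pillar libraries) and the 0 reads of Edn2 there limit what can be said of their size.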
